A study of Homo sapiens with 24 samples.

Results

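The zinc-finger genes of human chromosome arm 19p13.2 were examined in T-47D cells after transfection of miRNA mimics or an inhibitor. The members were 36 listed ZNF symbols of this arm, all of which had a row among the 26364 genes of the count tables. A mean of at least 0.5 CPM, the gene's count scaled to a common library size, was required over the 24 libraries, and 34 of the 36 met it. ZNF443, at 0.607 CPM, was the member just inside this limit, while ZNF20 at 0.0377 CPM (0 to 7 counts a library) and ZNF560 at 0.0147 CPM (0 to 4 counts) were outside it and entered no comparison of levels, though their sequences were counted among the listed members.

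T-47D is an ER-positive luminal breast cancer line. The cells carried either only wildtype (WT) ESR1 or, heterozygously at the endogenous locus, the Y537S or the D538G mutation, and each genotype was represented by 2 clones, so that a genotype group also holds what is particular to its clones. All cells were grown in hormone-deprived medium and transfected at 10 nM for 24 h. WT cells received the mimic negative control or a mimic of miR-181c-5p, miR-301b-3p or miR-331-3p. D538G cells received the mimic negative control or the miR-181c-5p or miR-301b-3p mimic. Y537S cells received the mimic negative control, the miR-301b-3p or miR-331-3p mimic, an inhibitor negative control or a let-7f-5p inhibitor. The miR-181c mimic was not analysed here in Y537S cells, nor the miR-331 mimic in D538G cells.

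KRAB zinc-finger proteins bind DNA through tandem arrays of C2H2 fingers and recruit the corepressor TRIM28 (KAP1), which brings in histone methyltransferases and heterochromatin proteins, and many of them silence transposable elements. The genes lie in clusters that arose by tandem duplication, and neighbouring genes therefore share much of their coding sequence. A miRNA pairs with its targets mainly through its seed, bases 2 to 8, and a pairing site is usually sought in the 3′ untranslated region (3′UTR). A repeated finger can carry the same short sequence many times in the coding sequence.

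The 4 miRNAs differ in their seeds, which are shown in capitals because matches to the miR-181c seed are counted in the members below. The mature sequences are those of RefSeq (GRCh38.p14), written 5′ to 3′.
hsa-miR-181c-5p: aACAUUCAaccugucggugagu
hsa-miR-301b-3p: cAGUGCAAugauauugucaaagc
hsa-miR-331-3p: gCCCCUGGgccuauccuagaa
hsa-let-7f-5p: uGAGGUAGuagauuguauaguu
The seed of miR-181c is shared with miR-181a, miR-181b, miR-181d and miR-4262, and its match in a target is TGAATGT.

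The matches to this seed are shown for the members that fell with the miR-181c mimic in both genotypes. Each line gives the first match in the transcript with 8 bases on either side, read on the strand of the gene in hg19, with the match in capitals.
ZNF788 (chr19:12222356-12222378, plus strand, last exon of a noncoding transcript): aaaccctaTGAATGTaaggattc
ZNF844 (chr19:12186686-12186708, plus strand, coding, last exon): aagccttaTGAATGTaaggaatg
ZNF440 (chr19:11942667-11942689, plus strand, coding, last exon): aaaccatgTGAATGTaaacagtg
ZNF700 (chr19:12059581-12059603, plus strand, coding, last exon): aaaccataTGAATGTaaacaatg
ZNF426 (chr19:9640035-9640057, minus strand, coding, last exon): aagtcattTGAATGTagtcactg
A match also lies in the annotated 3′UTR of ZNF844, and its flanks resemble those of the coding matches.
ZNF844 (chr19:12188272-12188294, plus strand, 3′UTR, last exon): aaacactaTGAATGTaagcagtg

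The 7-base match TGAATGT was found in the coding sequence of 34 of the 35 members that have one, or 97.1%, against 12.8% of 19042 coding genes. The exception was ZNF653, which held no match in its transcript. The members carried a median of 5 coding matches and up to 14, in ZNF699, and 20 of the 35 carried 5 or more, as did 0.909% of all coding genes. Per kilobase of coding sequence this came to 3.10 matches in the members and 0.132 over all genes. In the 3′UTR, 22 of the 35 members (62.9%) held a match, against 19.2% of coding genes. The longer 8-base match, in which an A follows TGAATGT in the target, was present in the coding sequence of 33 members (94.3%) and of 3.16% of genes.

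The coding matches lay at one point of the finger. Fingers were counted with the C2H2 pattern, which gave 431 fingers over the 35 members, with a median of 13 a gene and a range of 5 to 19. Of 185 coding matches, 180 ended in frame on a TGT codon, which encodes cysteine. For 158 matches, 85.4% of all, this was the codon of the first zinc-binding cysteine of a finger, and for 5 it was that of the second. The other 3 seeds matched the coding sequence of few members. The miR-301b match was in the coding sequence of 3 members (8.57%, against 6.98% of genes). The miR-331 match was in that of 0 of 35 (against 16.4%) and the let-7f match in that of 3 (8.57%, against 13.4%). In the 3′UTR the miR-301b match was more frequent in the members, with 8 of 35 (22.86%, against 13.99% of genes). The miR-331 match was in the 3′UTR of 1 member (against 13.89%) and the let-7f match in that of 2 (against 9.7%).

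ZNF788 has no coding sequence. The files name it ZNF788, and by its older symbol it was matched to ZNF788P, a transcribed unprocessed pseudogene at chr19:12203283-12223863 (hg19, plus strand), whose transcript holds 8 matches, each followed by A. It overlaps ZNF20 on the opposite strand by 20206 bases, and ZNF490 and ZNF791 overlap each other in the same way by 22923 bases. On its own strand ZNF788P is overlapped over 20581 bases by an annotated protein-coding gene and by a noncoding RNA gene. The same protein-coding gene overlaps ZNF844 on the same strand by 6239 bases. Of the 34 members kept, 23 overlap another annotated gene. The strand setting of the counting and the treatment of reads that fit several genes are not given in the sources used here. Reads of overlapping genes and of near-identical members may therefore have been exchanged, and values of single members are uncertain to that extent. ZNF20 itself had at most 7 counts in a library.

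Library totals were 31379962 to 50526442 counts with a median of 39878595. The luminal genes ESR1, PGR, GATA3, FOXA1, KRT8, KRT18 and KRT19 were detected in all libraries, with GATA3 at 1359 to 1720 CPM. PTPRC and PECAM1, which mark leukocytes and endothelium, had a median of 0 CPM, whereas COL1A1, usually a gene of fibroblasts, stood at 46.7 to 83.1 CPM. Because there are 2 libraries a condition, an exact permutation test of 2 against 2 cannot go below p = 0.333, and calls rest on edgeR's quasi-likelihood test over all genes with Benjamini-Hochberg adjustment. Levels below are CPM after TMM scaling. Fold changes are log2 values with their standard error (SE), and a gene was called at an adjusted p under 0.05. In bulk RNA, fewer cells expressing a gene and less RNA of it per cell cannot be told apart.

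In WT cells, 18 of the 34 members fell with the miR-181c mimic and 0 rose, while 8.28% of the 14968 genes tested were called lower and 8.1% higher. The median log2 fold change was -0.53 over the members and 0.01 over all genes tested. Both mimic libraries were below both control libraries for 31 of the 34 members, as for 26.4% of all genes tested. The 2 clones gave like medians, -0.49 in clone D1 and -0.57 in clone D4. The count was 11 without the negative control of clone D1 and 14 to 22 without any 1 of the other libraries. With clone as a block, 24 of 34 were called lower (13.4% of genes tested).

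In D538G cells, 6 of the 34 members fell with the same mimic and 0 rose, with 3.95% of 14826 genes called lower and 5.58% higher. The median was -0.44 over the members and 0.00 over all genes, and the clone medians were -0.36 in A5 and -0.54 in C2. The mimic libraries lay below both controls for 27 of 34 members (27.4% of genes tested). The clone block raised the count to 21 (13.6% of genes tested). Without the mimic library of clone C2 it was 2, and without the control of C2 it was 4.

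**Figure D1:**
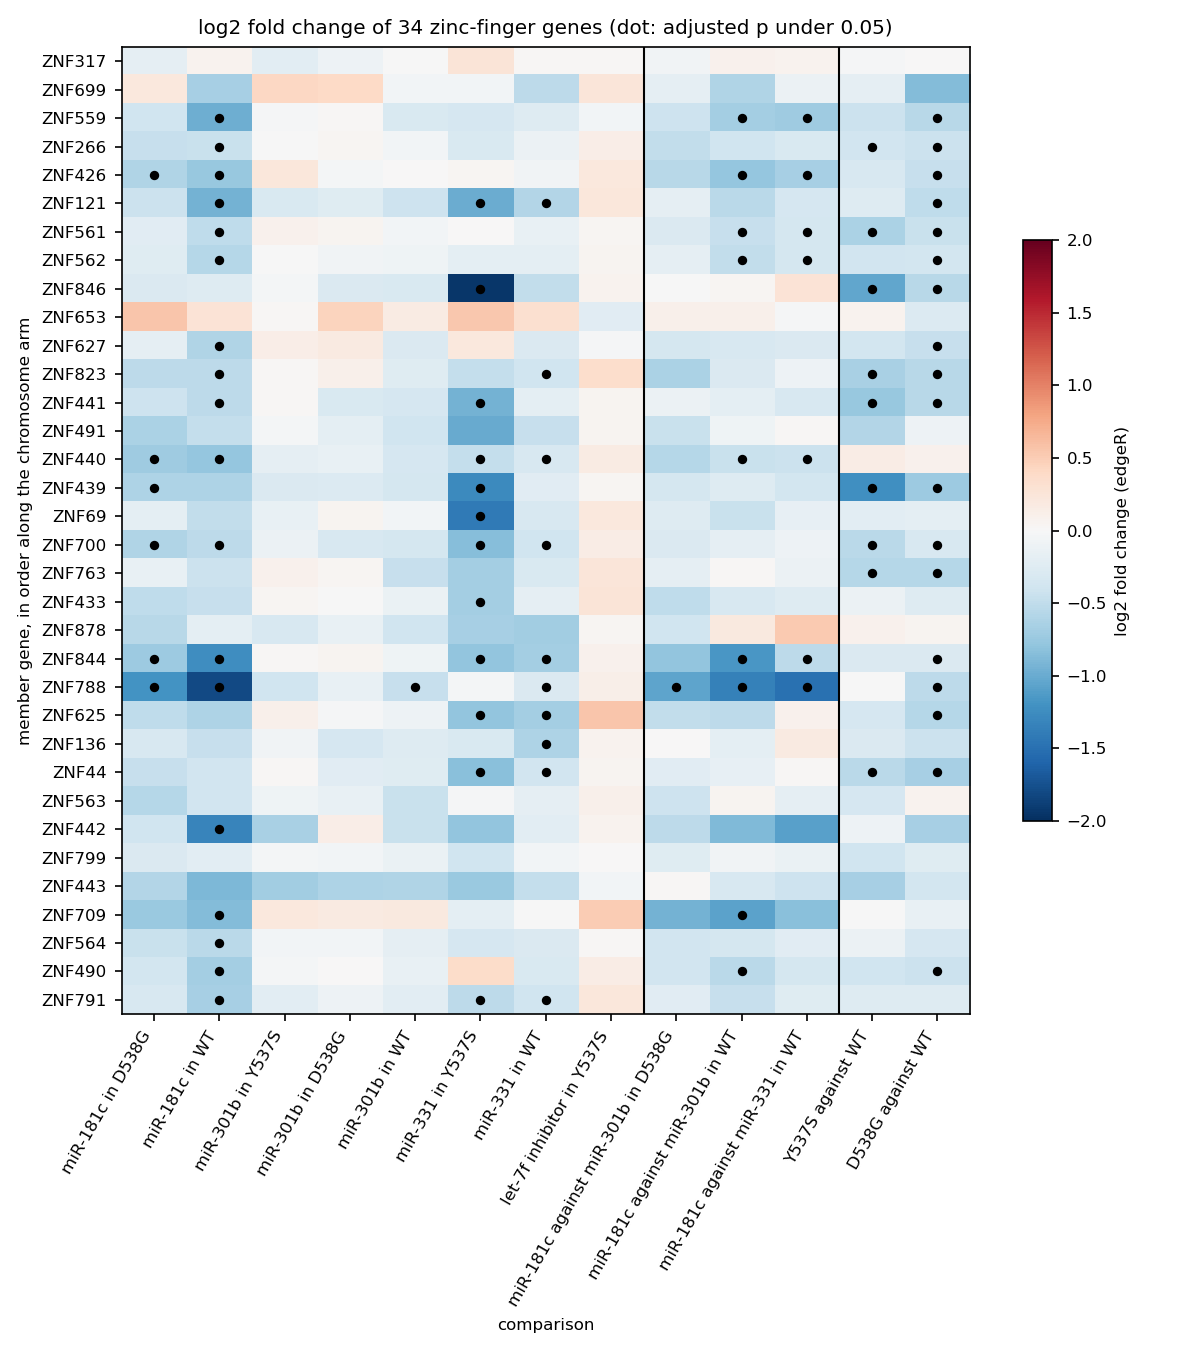
Log2 fold change (edgeR, colour) of the 34 members in rows, in order along the chromosome, in 13 comparisons in columns, with a dot where the adjusted p was under 0.05. The miR-181c columns hold 6 dots in D538G and 18 in WT cells, all on lower values, and ZNF653 is above 0 in both.

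The members called in both genotypes were ZNF788, ZNF844, ZNF440, ZNF426 and ZNF700. ZNF788, the pseudogene, was at 35.4 and 32.0 CPM in the WT controls and at 10.7 and 8.83 CPM with the miR-181c mimic. The D538G controls were at 24.8 and 22.4 CPM and the D538G mimic libraries at 11.6 and 9.0 CPM. All 4 mimic libraries were below every other library of the series, which ranged down to 21.1 CPM. The log2 fold change was -1.80 (SE 0.13, adjusted p = 4.6e-05, edgeR) in WT cells, or 71.3% lower, and -1.19 (SE 0.15, adjusted p = 0.00374) in D538G cells, or 56.2% lower.

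ZNF844, a KRAB zinc-finger gene next to it (chr19:12175546-12192380), carries 7 coding and 6 3′UTR matches. It was at 32.3 and 33.3 CPM in the WT controls and at 15.4 and 12.7 CPM with the mimic. In D538G cells the controls were at 27.1 and 26.9 CPM and the mimic libraries at 19.1 and 13.3 CPM. The groups did not overlap in either genotype, and the D538G mimic libraries were the farther apart. The log2 fold change was -1.24 (SE 0.12, adjusted p = 0.000235) in WT and -0.73 (SE 0.16, adjusted p = 0.0235) in D538G cells. The D538G call was lost without the mimic library of clone C2, at -0.50.

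ZNF440 (chr19:11925088-11946031) has 4 coding and 5 3′UTR matches, each followed by A. Its level was 42.6 and 44.9 CPM in the WT controls and 25.7 CPM in both mimic libraries. In D538G cells it was 45.5 and 47.8 CPM in the controls against 30.8 and 26.2 CPM. Log2 fold changes of -0.78 (SE 0.09, adjusted p = 0.000592) and -0.70 (SE 0.11, adjusted p = 0.00588) followed. Both calls held when any 1 library was left out.

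ZNF426 (chr19:9633899-9649321) lies in the other stretch of the arm and has 4 coding and 6 3′UTR matches. It stood at 16.7 and 16.6 CPM in the WT controls and at 10.5 and 9.48 CPM with the mimic. The D538G controls were at 11.7 and 12.9 CPM and the mimic libraries at 8.51 and 7.66 CPM. It fell in WT cells (log2 -0.75, SE 0.14, adjusted p = 0.00517) and in D538G cells (log2 -0.60, SE 0.16, adjusted p = 0.0443). The latter call was lost without either mimic library, at -0.68 without clone A5 and -0.52 without clone C2, and without the control of clone C2, at -0.53.

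ZNF700 (chr19:12035883-12061588), with 9 coding and 2 3′UTR matches, was at 36.1 and 36.2 CPM in the WT controls and at 27.7 and 23.1 CPM with the mimic. In D538G cells it was at 28.3 and 30.0 CPM against 21.9 and 16.4 CPM. The groups were apart in both genotypes. The log2 fold changes were -0.52 (SE 0.11, adjusted p = 0.0108) and -0.60 (SE 0.14, adjusted p = 0.0299), and the D538G call was lost without the mimic or the control library of clone C2, at -0.41 and -0.56.

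**Figure D2:**
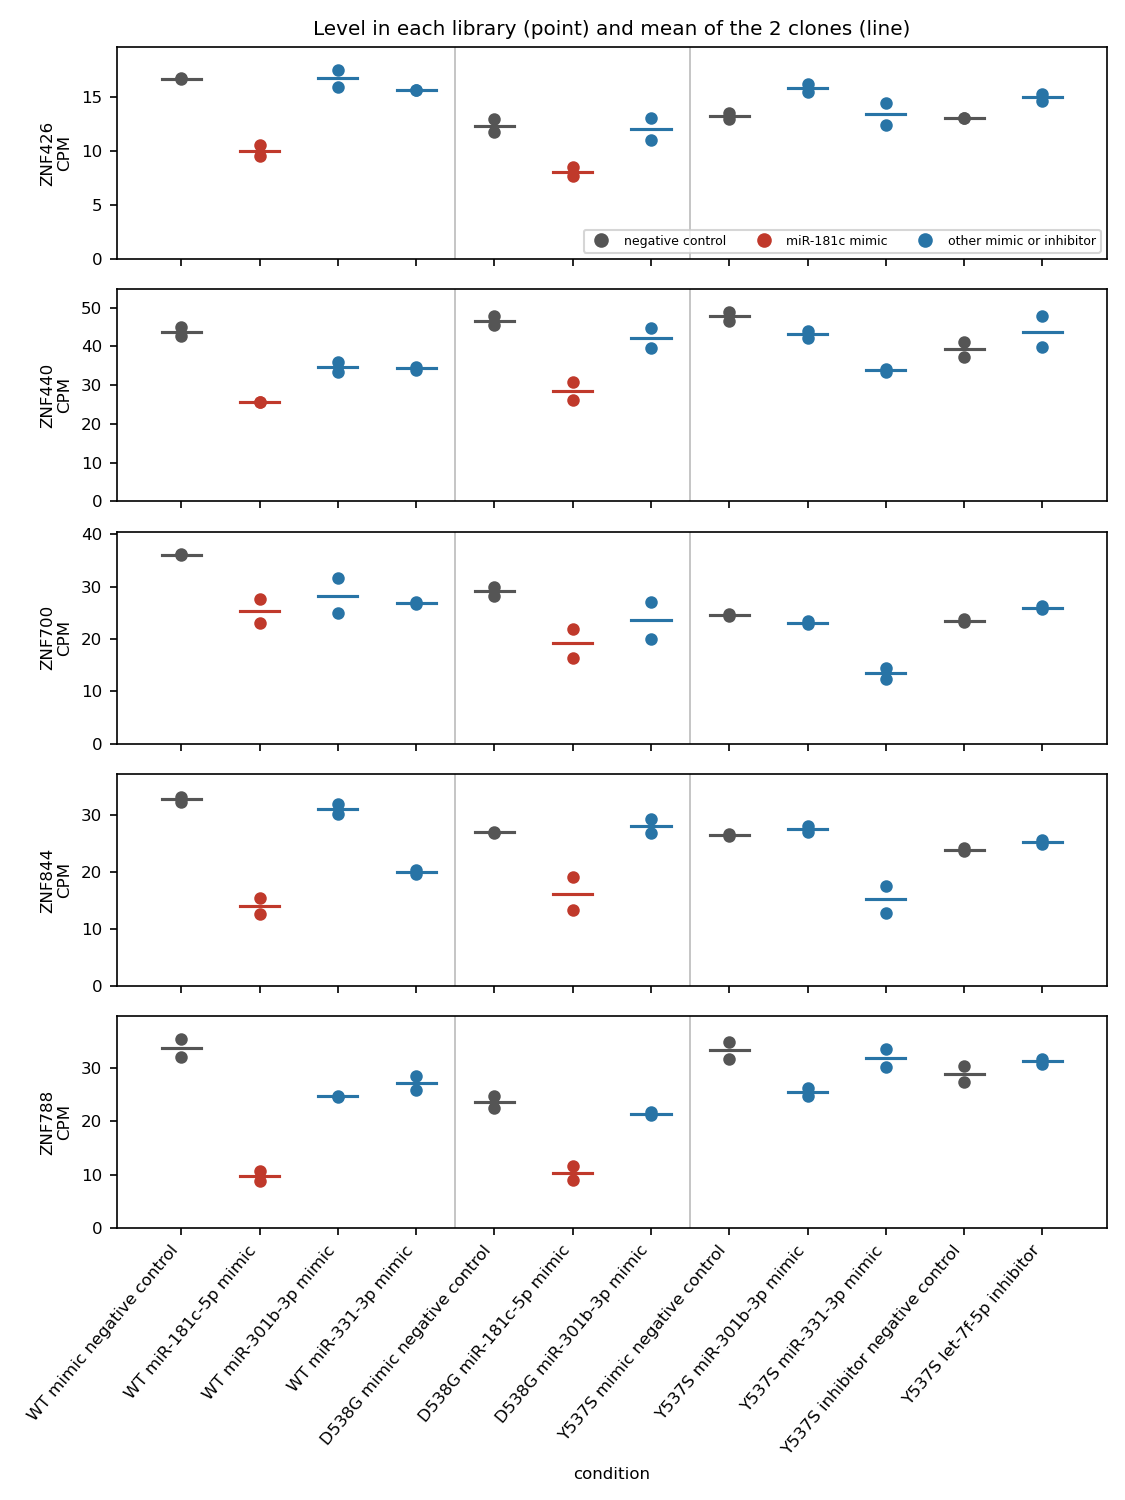
Level (CPM after TMM scaling, y axis from 0) of ZNF426, ZNF440, ZNF700, ZNF844 and ZNF788 in each library (points) and mean of the 2 clones (lines) in the 12 conditions. ZNF788 is at 8.83 to 11.6 CPM in the 4 miR-181c libraries and at 21.1 CPM or more in the others, while ZNF700 and ZNF844 are low with miR-331 too.

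Further members called in WT cells included ZNF442 at -1.32 (SE 0.28), ZNF559 at -0.98 and ZNF121 at -0.95. ZNF442 is a low gene, with 4.28 and 3.55 CPM in the WT controls against 1.47 and 1.69 CPM. It was at -0.40 (SE 0.31) in D538G cells, where it was not called. ZNF439 was the sixth member called in D538G cells, at an adjusted p of 0.05 after rounding. It stood at -0.61 there (SE 0.17) and at the same rounded value in WT cells (SE 0.23), where its adjusted p was 0.0966 and, with the clone block, 0.000323. Whether the response differed by genotype was tested as D538G minus WT. Of the 34 members, 0 passed in edgeR and 0 in DESeq2 (0.00646% and 0.00959% of genes tested). At an unadjusted p under 0.05 in edgeR there were 7 members. Counts at that unadjusted limit, here and below, stand without the share of all genes and are not read as results. The D538G minus WT difference was 0.62 (SE 0.21) for ZNF788 and 0.51 (SE 0.22) for ZNF844. The corresponding difference for ZNF440 was 0.08 (SE 0.14).

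The members above 0 are few. ZNF653, the member without a match, was at 3.23 and 4.30 CPM in the WT controls and 4.36 and 4.83 CPM with the mimic, a log2 fold change of 0.28 (SE 0.24) that was not called. In D538G cells it was at 0.55 (SE 0.23), also not called. ZNF653 also had the highest GC content of the members, 65.4%, and with a correction for GC it stood at -0.07 and 0.17. ZNF317, with 2 coding matches, was at 0.08 (SE 0.08) in WT and -0.18 (SE 0.10) in D538G cells. ZNF699, which has the most coding matches, was at -0.66 (SE 0.29) and 0.22 (SE 0.35), neither called.

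Members with many matches had the lowest medians. The 13 members with 8 or more matches in the transcript had a median of -0.76 in WT and -0.60 in D538G cells. Of them 9 and 6 were called lower, where 8.28% and 3.95% of all genes tested were. The 15 members with 5 to 7 matches had medians of -0.46 and -0.41, with 6 and 0 called. The 6 members with 0 to 4 matches had medians of -0.55 and -0.20, with 3 and 0 called. Over the 34 members, Spearman's rho between the number of matches and the log2 fold change was -0.50 in WT and -0.51 in D538G cells (Pearson's r -0.47 and -0.36). It was -0.24 and -0.09 for the miR-331 mimic in Y537S and WT cells (r -0.22 and -0.24). For the miR-301b mimic it was 0.05, -0.06 and 0.01 in Y537S, D538G and WT cells (r 0.17, -0.03 and 0.03). These are descriptions, since the members share ancestry, base composition and the same libraries.

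**Figure D3:**
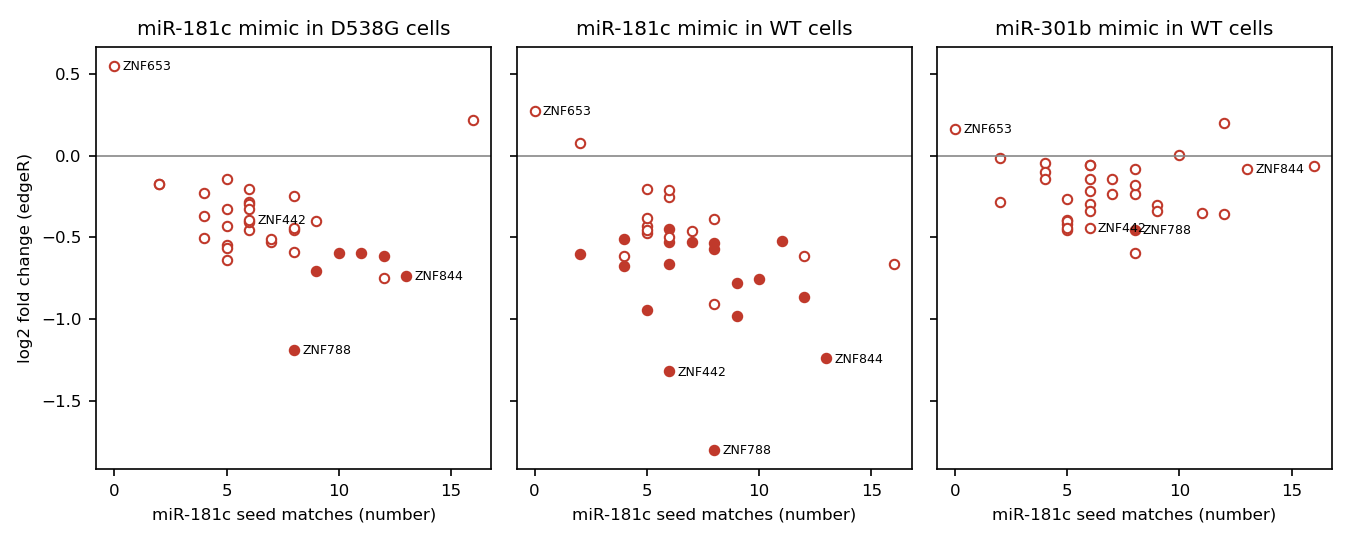
Log2 fold change (edgeR, y axis) against the number of miR-181c seed matches in the transcript (x axis) for the 34 members, each a point, filled where called. With the miR-181c mimic in WT cells the points range from ZNF653, with 0 matches, at 0.28 to ZNF788, with 8, at -1.80, and ZNF699 with the most matches is above 0 in D538G cells, while with the miR-301b mimic they lie between -0.60 and 0.20.

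The position of the match could be compared over all coding genes tested. In WT cells, 170 genes with 3 or more coding matches and none in the 3′UTR had a median of -0.28, and 29.4% of them were called lower. The 9 members among them had a median of -0.51. The 2290 genes with 3′UTR matches only had a median of -0.16 and 24.4% called lower, and the 9084 genes with neither were at 0.08 with 3.37% called. Of the 103 genes with 3 or more coding matches and a 3′UTR match, 51.5% were called lower at a median of -0.53, and 20 of these were members, at -0.59. Zinc-finger genes made up 121 of the 170 and 94 of the 103. With the GC correction the shares called lower became 12.9% of the 170, at a median of -0.14, and 32.0% of the 103, at -0.35. For the genes with 3′UTR matches only the share became 13.4%, at -0.05, and for those with neither 1.25%, at 0.05.

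In D538G cells the class with coding matches alone (169 genes) was at -0.24 with 10.1% called lower, and that with 3′UTR matches as well (105 genes) at -0.41 with 22.9%. After the GC correction 0.592% and 6.67% were called. The 2270 genes with 3′UTR matches only were at -0.13 with 12.9% called lower, and 3.22% after the correction. The 9039 genes with neither were at 0.06 with 1.15% called lower, and 0.177% after it. Both classes with 3 or more coding matches were also low with the miR-331 mimic. Their medians were -0.50 and -0.56 in Y537S cells, with 36.1% and 42.9% called lower, and -0.26 and -0.30 in WT cells, with 27.4% and 34.3%. Genes with 3′UTR matches only had 19.9% and 16.7% called lower in Y537S and WT cells, and those with neither 12.0% and 8.38%. With the GC correction the coding classes had 18.3% and 17.1% called lower in Y537S cells (9.26% of all genes). In WT cells they had 1.79% and 2.94% (2.57% of all genes). The direct comparison of miR-181c with miR-331 in WT cells gave a median of 0.01 for the 159 non-member genes with coding matches alone. Of these genes 6.92% were called lower (4.2% of all genes). The 9 members of that class had a median of -0.23. Against miR-301b the non-member genes of this class had medians of -0.15 in D538G and -0.12 in WT cells. Of them 1.25% and 3.77% were called lower (0.848% and 3.28% of all genes). The 9 members were at -0.395 and -0.357 there.

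The cluster lies in a pair of stretches on the arm, at 9251073 to 9903856 (ZNF317 to ZNF846) and at 11594242 to 12750912 (ZNF653 to ZNF490), both hg19. In WT cells the 9 tested members of the first stretch had a median of -0.57 with 6 called lower (8.28% of genes). The 25 of the other had a median of -0.53 with 12 called lower. In D538G cells the medians were -0.29 and -0.50, with 1 and 5 called lower (3.95% of genes). Genes without a zinc finger that lie between the first and the last member had medians above 0. Of 57 tested in WT cells 1 was called lower and 8 higher (8.28% and 8.1% of genes), at a median of 0.18. Of 55 in D538G cells 1 was lower and 7 higher (3.95% and 5.58% of genes), at a median of 0.23.

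Transcript GC content moved with these results. The members had a median GC of 42.6%, against 48.7% over genes tested in WT cells and 60.2% over the genes without a zinc finger between them. Across all genes tested, Spearman's rho between log2 fold change and GC was 0.57 with miR-181c in each genotype and 0.49 to 0.62 with the miR-301b and miR-331 mimics. With a GC correction the members' median became -0.38 in WT and -0.29 in D538G cells, and 13 and 2 members were called lower (4.04% and 0.789% of genes), ZNF788 and ZNF440 in each. With the clone block and the GC correction together, 16 and 9 were called lower (7.41% and 7.81%). ZNF426, ZNF700 and ZNF844 lost the D538G call under the GC correction alone, and ZNF700 the WT call.

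Mimics were also compared directly within a genotype, and there rho with GC was -0.12 (miR-181c against miR-301b, D538G), 0.01 (the same, WT) and -0.10 (miR-181c against miR-331, WT). The members' medians were -0.35, -0.34 and -0.26, with all genes at 0.00 in each, and the GC correction left them at -0.34, -0.34 and -0.28. Against miR-301b, 1 member was called lower in D538G cells (0.848% of genes) and 9 in WT cells (3.28%). Against miR-331 in WT cells, 7 were called lower (4.2%). In the 3 comparisons 0 members were called higher, where 1.54%, 2.86% and 4.3% of genes were. With the clone block the counts were 14 (7.67%), 12 (5.02%) and 12 (8.89%). These comparisons share the miR-181c libraries with those above.

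ZNF788 was the lowest called member in each. Its levels with miR-301b were 24.5 and 24.8 CPM in WT and 21.1 and 21.7 CPM in D538G cells, and with miR-331 28.4 and 25.8 CPM in WT cells, all above its miR-181c levels. The log2 differences were -1.35 (SE 0.14, adjusted p = 0.00035, edgeR) and -1.05 (SE 0.15, adjusted p = 0.0209) against miR-301b, and -1.49 (SE 0.13, adjusted p = 0.000452) against miR-331. The highest called member against miR-301b in WT cells was ZNF440, at 33.3 and 35.9 CPM with miR-301b (log2 -0.44, SE 0.11, adjusted p = 0.0376). This call was lost without any 1 of the 4 libraries, at -0.39 to -0.49. Against miR-331 it was ZNF561, whose levels were 39.6 and 41.1 CPM with miR-181c and 50.9 and 50.4 CPM with miR-331 (log2 -0.34, SE 0.08, adjusted p = 0.0262). That call was lost without the miR-181c library of clone D1 and without either miR-331 library, at -0.32 to -0.35.

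The miR-301b mimic gave few calls among the members. In Y537S and D538G cells 0 of 34 were called in edgeR, where 2.34% and 6.49% of genes were called lower and 1.23% and 5.29% higher, and 1 and 0 members had an unadjusted p under 0.05. DESeq2 called 0 of the 30 and 29 members to which it gave an adjusted p (14.9% and 20.1% of such genes). The medians were -0.03 and -0.06, and 0.11 and 0.06 with the GC correction. WT cells moved more, with clone medians of -0.24 in D1 and -0.22 in D4 and 28 of the 34 members lower in each clone. Both mimic libraries were below both controls for 19 members in WT cells (27.9% of genes tested). This held for 9 in Y537S (25.2%) and 11 in D538G cells (28.8%). In WT cells 1 member, ZNF788, was called lower (3.87% of genes), at 24.5 and 24.8 CPM against 35.4 and 32.0 CPM in the controls (log2 -0.45, SE 0.10, adjusted p = 0.0345). The call was lost without either control library and with the GC correction. The clone block gave 3, 1 and 7 members lower in the 3 genotypes, where 20%, 16.9% and 14.2% of genes were.

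With the miR-331 mimic members fell too. Its seed match occurs in 1 member alone, in the 3′UTR of ZNF562. In Y537S cells 12 of 34 fell and 0 rose (15.8% of genes called lower and 17.2% higher), at a median of -0.48. In WT cells 10 fell and 0 rose (10.6% and 14.2% of genes), at a median of -0.30. Both mimic libraries were below both controls for 23 of the 34 members in Y537S cells (36.8% of genes tested). In WT cells this held for 28 of the 34 (33.4%), beside the 31 with miR-181c. With the GC correction 4 and 1 members were called lower (9.26% and 2.57% of genes), and with the clone block 20 were lower and 3 higher in Y537S cells (30.2% and 30.5% of genes). The count in Y537S cells was 3 without the mimic library of clone 1 and 6 without either control.

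The lowest called member in Y537S cells was ZNF846, at 2.89 and 3.95 CPM in the Y537S controls and 0.545 and 1.22 CPM with the mimic (log2 -1.94, SE 0.48, adjusted p = 0.0311). It missed the threshold with the GC correction, without the mimic library of clone 1 and without the control of clone 2. The called member nearest 0 was ZNF440, at 46.6 and 48.9 CPM against 34.3 and 33.5 CPM (log2 -0.48, SE 0.10, adjusted p = 0.0188). It missed the threshold when any 1 library was left out. In WT cells the lowest was ZNF844, at 32.3 and 33.3 CPM against 19.7 and 20.4 CPM (log2 -0.68, SE 0.09, adjusted p = 0.00058), which held with the GC correction. The highest called was ZNF788, at 28.4 and 25.8 CPM with the mimic (log2 -0.29, SE 0.09, adjusted p = 0.0449), a call that was lost with the GC correction (log2 -0.10), in DESeq2, and without either mimic library or the control of clone D1.

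ZNF69 was called for a difference between genotypes in its response to miR-331. The call was lost without either WT mimic library, without either WT control and without the Y537S control of clone 1. It was at 10.3 and 8.22 CPM in the Y537S controls and 3.77 and 3.09 CPM with the mimic, and at 11.3 and 10.3 CPM against 8.83 and 8.23 CPM in WT cells. The Y537S mimic libraries were the lowest of the series. The log2 fold changes were -1.42 (SE 0.24) and -0.32 (SE 0.14), and their difference was -1.12 (SE 0.26, adjusted p = 0.0322). In edgeR it was the 1 member of 34 called for a difference (6.47% of genes called lower and 3.47% higher). DESeq2 called 4 (15.4% of genes), ZNF69, ZNF439, ZNF441 and ZNF846, and the last 3 stood at -1.06, -0.77 and -1.46 in edgeR, not called. With the clone block 7 were called lower and 2 higher (17.4% and 16.7% of genes).

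The same test for miR-301b called 0 of 34 members, Y537S or D538G minus WT, in edgeR (0.00632% and 0.0064% of genes) or in DESeq2 (0.00475% and 0.00954%), with 0 and 1 at an unadjusted p under 0.05. With the let-7f inhibitor in Y537S cells 0 members and 0% of 15140 genes were called in edgeR, 0 members and 0.556% of genes in DESeq2, and 1 member had an unadjusted p under 0.05. The members' median was 0.08, and 30 of the 34 were above 0. With the clone block 1 member was called higher, ZNF625 at 0.56 (4.31% of genes).

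In the mimic negative controls, several members were lower in the mutants. Of the 34, 9 were called lower in Y537S than in WT controls (12.7% of genes) and 18 in D538G (18.5%), with 0 higher in each (16.3% and 20.4% of genes), at medians of -0.33 and -0.42. Both comparisons use the same WT libraries, which also served as controls above. ZNF439 was the lowest called member in both, at 22.3 and 15.9 CPM in WT, 8.16 and 7.98 CPM in Y537S and 11.9 and 11.5 CPM in D538G controls (log2 -1.23, SE 0.19, adjusted p = 0.00377, and -0.72, SE 0.17, adjusted p = 0.00941). The WT clones were apart, and the D538G call was lost without clone D1. The highest called were ZNF266 in Y537S cells, at 33.0 and 35.6 against 47.7 and 43.2 CPM (log2 -0.39, SE 0.11, adjusted p = 0.0331), and ZNF844 in D538G cells (log2 -0.29, SE 0.10, adjusted p = 0.0356). The ZNF266 call was lost without either WT library and that of ZNF844 without any 1 library. Without the WT control of clone D1 the counts were 2 and 3.

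Other zinc-finger genes were counted for comparison. Of the other genes named ZNF and a number, 95 of 411 tested fell with miR-181c in WT cells and 14 rose, at a median of -0.22. Over all genes tested 8.28% were called lower and 8.1% higher there. In D538G cells 26 of 407 fell and 9 rose, at -0.15 (3.95% and 5.58% of genes). Of the cluster on 19p12, 10 of 29 tested fell in WT and 3 in D538G cells, at medians of -0.44 and -0.37, and 0 rose. With miR-331 in Y537S cells 21 of these 29 fell (15.8% of genes), at -1.11, beyond the -0.48 of the 19p13.2 members. These values are without the GC correction, and the other ZNF genes tested in WT cells had a median GC of 43.1%. Against miR-331 in WT cells the 19p12 median with miR-181c was 0.03, and that of the 19p13.2 members was -0.26.

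**Figure D4:**
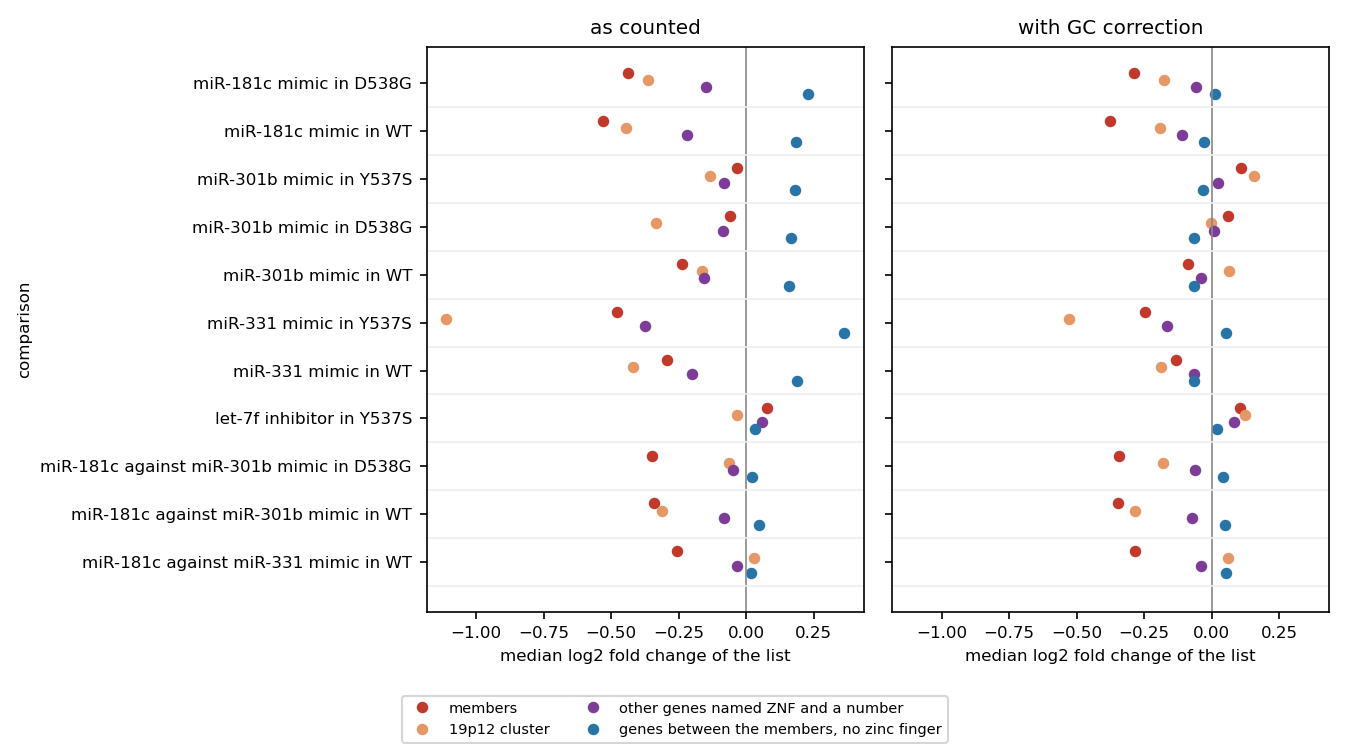
Median log2 fold change (x axis) of the 34 members, the 19p12 cluster, other genes named ZNF and a number, and genes without a zinc finger between the members, in 11 comparisons (y axis), as counted and with the GC correction. The members sit at -0.26 to -0.35 in the 3 direct comparisons of miR-181c with another mimic in the left panel and at -0.28 to -0.34 in the right one.

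A list of 21 corepressor and chromatin genes, TRIM28 among them, was counted as well. With miR-181c, 3 rose and 0 fell in D538G cells (3.95% of genes lower, 5.58% higher), and 3 rose and 1 fell in WT cells (8.28% and 8.1%). TRIM28, the corepressor itself, was at 0.32 in both (SE 0.07 in D538G and 0.09 in WT cells, adjusted p = 0.0238 and 0.0391), and at -0.02 and -0.01 with the GC correction, where it was not called. DNMT3B, a de novo DNA methyltransferase, rose by 0.84 and 0.76 and stayed called with that correction. UHRF1, which recruits DNMT1 to replicating DNA, rose by 0.31 and 0.69, and the D538G call was lost with that correction. ATRX, a chromatin remodeller, fell in WT cells (log2 -0.25) and was at 0.02 after it. DNMT3B rose with the miR-301b mimic too, by 1.11 in Y537S, 0.90 in D538G and 1.03 in WT cells, and was the 1 gene of the list called higher in each (1.23%, 5.29% and 4.63% of genes), while 1, 3 and 0 fell (2.34%, 6.49% and 3.87%). TRIM28 was at 0.25, 0.24 and 0.23 in these, not called. Between miR-181c and miR-301b directly, the difference for DNMT3B was -0.07 (SE 0.13) in D538G and -0.28 (SE 0.15) in WT cells, neither called. The Y537S call of DNMT3B with miR-301b was lost with the GC correction. With miR-331, TRIM28 rose by 0.91 in Y537S and 0.42 in WT cells, as the 1 gene of the list in each (17.2% and 14.2% of genes higher). Of the 21, 5 fell in each (15.8% and 10.6% of genes), among them ATRX at -1.01 and -0.30. After the GC correction TRIM28 was called in Y537S cells alone (0.53, and -0.01 in WT), and ATRX in neither. TRIM28 was also higher in the Y537S and D538G controls than in WT (0.47 and 0.42), as were 6 and 5 others of the list (16.3% and 20.4% of genes), and 0 and 2 were lower (12.7% and 18.5%).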

How the data were processed

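RNA-seq counts per gene were deposited for 24 libraries of 12 conditions. Per the paper's methods, the authors aligned poly-A RNA reads to hg19 with HISAT2 and counted genes with featureCounts on UCSC Known Genes. The deposited values are raw read counts. The members, gene lists and tests were chosen with earlier results of these data known. Groups came from the labels, and the 2 libraries of a condition are 2 clones.

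Here, edgeR 4.0.16 (R 4.3.3; TMM, filterByExpr, quasi-likelihood F test, Benjamini-Hochberg over all genes) was fitted to the libraries of each of 17 comparisons. A member needed a mean of 0.5 CPM. Alternatives were DESeq2 1.42.0, RLE size factors, no filter, a lowess GC correction (span 0.3), all conditions in 1 fit, clone as a block and leaving out each library. The same clones received each treatment, which pairs the libraries, and the deviations of same-clone libraries correlated at 0.24 to 0.77. The fits were tested on simulated counts. Seed matches were searched on the sense strand of 1 GENCODE v44lift37 transcript a gene (canonical, GRCh37) for 23857 genes, 22494 by symbol and 1363 by older symbol.

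Members are named in full if called in both miR-181c comparisons or if lowest or highest called in another comparison, and others were chosen after their values were seen. P-values rest on the spread between the clones of a group, with variances estimated partly from other genes. With the clone as a block they rest on how far the clones differ in their response. Counts cover 34 members and 21 listed corepressor and chromatin genes, beside other ZNF genes, 32 of the 19p12 cluster and 77 neighbours.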

Additional observations from a re-analysis of the deposited data

Results flagged for a closer look

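The response of ZNF69 to the miR-331 mimic differed between Y537S and WT cells in the test of the difference itself, at -1.12 on the log2 scale (SE 0.26, adjusted p = 0.0322, edgeR). ZNF69 was the 1 member of the 34 called in this test, where 6.47% of genes were called lower and 3.47% higher. All 4 libraries with the mimic were below their controls, at 3.77 and 3.09 CPM in Y537S and 8.83 and 8.23 CPM in WT cells. The call was lost, at -0.96 to -1.19, without either WT mimic library, without either WT control and without the Y537S control of clone 1.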

How the results depend on the processing

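No paired analysis was possible because the clones are nested in the genotypes for the Y537S and D538G comparisons with WT controls, where replicate numbers name different clones. In the other comparisons the same clone received each treatment, and with the clone as a block the number of members called was 21 for miR-181c in D538G cells, 3, 1 and 7 for miR-301b in Y537S, D538G and WT cells, 23 for miR-331 in Y537S cells, 1 for the let-7f inhibitor, 14 for miR-181c against miR-301b in D538G cells, 12 for miR-181c against miR-331 and 9 for the Y537S minus WT difference with miR-331. Counts in this section are of members called in either direction. Those with no share of all genes given above describe the settings and are not read as results about the members. The block left the other counts within 1.5 times. With block and GC correction together they were 6 and 1 for miR-301b in Y537S and D538G cells, 21 and 5 for miR-331 in Y537S and WT cells, 2 for let-7f, 14 and 14 for miR-181c against miR-301b in D538G and WT cells, 15 against miR-331 and 10 for the miR-331 difference.

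The GC correction alone gave 2 for miR-181c in D538G cells, 0 for miR-301b in WT cells, 4 and 1 for miR-331 in Y537S and WT cells and 2 for miR-181c against miR-301b in D538G cells. Without a filter on low counts the counts were 10 for miR-181c in D538G cells, 3 for miR-301b in WT cells, 7 for miR-181c against miR-301b in D538G cells and 4 for the miR-331 difference. DESeq2 gave 2, 4 and 4 for the last 3 of these. All conditions in 1 fit gave 1 and 2 for miR-301b in Y537S and WT cells, 5 for miR-331 in WT cells, 3 for miR-181c against miR-301b in D538G cells and 3 for the miR-331 difference. RLE size factors, the 8-base match and no minimum on mean CPM moved no count by over 1.5 times. The cause of these differences was not tested.

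Leaving out 1 library, with the lone sample assumed to vary like the other group, gave 2 to 7 members for miR-181c in D538G cells (2 without the mimic and 4 without the control of clone C2) and 11 to 22 in WT cells (11 without the control of clone D1). For miR-301b it gave 0 in Y537S cells, 0 to 1 in D538G cells (1 without the mimic of clone A5) and 0 to 4 in WT cells (0 without either control, 2 and 4 without the mimic of D4 and D1). For miR-331 it gave 3 to 9 in Y537S cells (3 without the mimic of clone 1, 6 without either control) and 4 to 11 in WT cells (4 without either mimic, 5 without the control of D1), and for let-7f 0. Against miR-301b it gave 2 to 7 in D538G cells (more than the 1 called in all 4 cases) and 3 to 8 in WT cells (3 and 5 without the miR-301b library of D1 and D4). Against miR-331 it gave 1 to 10 (1 and 3 without the miR-331 library of D1 and D4). The genotype counts were 2 to 13 for Y537S (2 and 4 without the WT control of D1 and D4) and 3 to 14 for D538G (3 without WT clone D1, 9 without clone A5). The differences between genotypes gave 0 for miR-181c and miR-301b and 0 to 5 for miR-331 (0 without any 1 of the 4 WT libraries or the Y537S control of clone 1, 5 without the Y537S mimic of clone 2).

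Of the fold changes given for the members named by rule, none changed sign. Leaving out a library kept 68 on their side of the threshold and took 36 across it, and the other settings kept 153 and took 14 across. Members near the minimum, such as ZNF443 with 8 to 47 counts a library, limit what this depth can show.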
